A study of Mus musculus with 9 samples.

Results

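The 10 genes described here are 7 genes of the NRF2 antioxidant pathway, Nfe2l2, Keap1, Nqo1, Gclc, Gclm, Txnrd1, and Srxn1, and 3 metallothionein genes, Mt1, Mt2, and Mt3. They were taken by name from the deposited table of 54532 mouse genes, and each name was found once. Of the 10, 9 passed the filter on low counts that left 17540 genes for testing, and Mt2 did not.

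Bulk RNA-Seq was performed on the retina of 9 wild-type C57BL/6 mice at P17, with 3 mice per group. In the oxygen-induced retinopathy (OIR) model, newborn mice breathe high oxygen, which obliterates the central retinal vessels, and the return to room air at P12 leaves the retina ischemic. Control mice were not exposed to high oxygen, and their labels give DMSO. OIR mice received the vehicle DMSO by a single intraocular injection at P12, and treated OIR mice received 32-134D, an inhibitor of the hypoxia-inducible factors (HIFs), given as 70 ng in the labels and 70 ng/µl in the design text. Mice are named by the numbers in their labels (control mice 1, 6, and 7, OIR mice 3, 5, and 6, treated OIR mice 2, 5, and 10), which mark separate animals and do not pair the groups.

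Total counts ranged from 16028731 to 27213184 per mouse. The labelled tissue was checked by its rods, and all 10 listed rod markers were detected in each group, with a summed level between 39828 and 74463 CPM (counts scaled to library size). Treated OIR mouse 2 stood apart. Genes of the lens crystallins held 15.75% of its counts (95% Wilson interval 15.74% to 15.77%, which covers counting error only) and at most 0.183% (0.181% to 0.185%) in any other mouse, and its summed level of 21 lens markers was 190595 CPM. Xist and Y-linked genes marked 4 of the mice as female (treated OIR mice 2 and 5, OIR mouse 3, and control mouse 1). In bulk tissue, fewer cells of a type and less RNA per cell cannot be told apart.

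NRF2, the protein of Nfe2l2, is a transcription factor that is held in the cytoplasm and sent for degradation by KEAP1. Oxidants and electrophiles modify cysteines of KEAP1, after which NRF2 accumulates, pairs with a small MAF protein, and binds antioxidant response elements (AREs) near its target genes, where the repressor BACH1 competes for the same sites. Among the classical targets, Gclc and Gclm encode the subunits of the enzyme that limits glutathione synthesis, Txnrd1 encodes the reductase of cytosolic thioredoxin, Srxn1 encodes sulfiredoxin, which repairs overoxidized peroxiredoxins, and Nqo1 encodes a quinone reductase. Metallothioneins are small proteins that bind zinc and copper through clusters of cysteines. Mt1 and Mt2 are induced by zinc through the factor MTF1 and its metal response elements (MREs), and also by glucocorticoids and by STAT3 signaling, whereas Mt3 is the form typical of nervous tissue. In the retina, Müller glia hold much of the glutathione and metallothionein.

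The coding sequences of the metallothioneins are printed because they show what these 3 genes share and how far Mt1 and Mt2 differ. Mt3, Mt2, and Mt1 lie in this order on the plus strand of chromosome 8 of GRCm38, with coding exons between chr8:94152800-94154010, chr8:94172848-94173427, and chr8:94179311-94180193. Each sequence below is joined from the annotated coding exons of the reference transcript (GENCODE M21), from the start codon to the stop codon, with cysteine codons in capitals.
Mt1: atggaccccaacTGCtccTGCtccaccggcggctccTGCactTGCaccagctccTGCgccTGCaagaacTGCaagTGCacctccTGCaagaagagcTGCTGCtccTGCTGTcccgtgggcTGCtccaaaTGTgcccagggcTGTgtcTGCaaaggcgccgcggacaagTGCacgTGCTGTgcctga
Mt2: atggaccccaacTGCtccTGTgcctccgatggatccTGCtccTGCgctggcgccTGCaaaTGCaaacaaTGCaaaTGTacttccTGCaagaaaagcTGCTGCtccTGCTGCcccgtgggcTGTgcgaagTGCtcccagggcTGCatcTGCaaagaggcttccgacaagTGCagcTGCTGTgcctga
Mt3: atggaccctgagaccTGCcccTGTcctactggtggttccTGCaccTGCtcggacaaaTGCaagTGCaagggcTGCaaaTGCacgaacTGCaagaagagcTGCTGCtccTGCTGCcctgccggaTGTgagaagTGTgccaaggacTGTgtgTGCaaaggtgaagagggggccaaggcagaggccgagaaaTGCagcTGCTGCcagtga
Mt1 and Mt2 each have 61 codons before the stop, 20 of them for cysteine, and Mt3 has 68, also with 20 for cysteine. The cysteine codons of Mt1 and Mt2 stand at the same 20 positions. The pair is identical at 148 of 186 bases (79.6%), and the longest run without a difference is 20 bases.

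The upstream promoter sequences of 4 members are printed because they hold matches to the cores of the elements by which NRF2 and MTF1 are known to act. These genes also took different courses in the counts. The sequences are from RefSeq (GRCm38.p6) and cover the 250 bases before the gene start annotated there. They form the first part of a window that also takes in the 50 bases after that start. This start can differ from the deposited gene position given further below. For Mt2, the sequence ends at 94172617 and the deposited position begins at 94172664. Of the 10 members, 9 had a window and Gclc had none, and Txnrd1 had 3, for 11 windows in all. In the next pair, capitals mark the core of the ARE, read on both strands as TGACNNNGC or TGAGNNNGC, the second spelling having been added after the matches to the first were seen.
Srxn1, chr2:152105274-152105523, plus strand: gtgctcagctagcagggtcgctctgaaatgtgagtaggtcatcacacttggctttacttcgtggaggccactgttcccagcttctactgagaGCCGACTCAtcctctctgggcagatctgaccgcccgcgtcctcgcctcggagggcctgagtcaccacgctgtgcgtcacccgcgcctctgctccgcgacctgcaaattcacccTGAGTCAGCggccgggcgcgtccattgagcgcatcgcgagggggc
Gclm, chr3:122245307-122245556, plus strand: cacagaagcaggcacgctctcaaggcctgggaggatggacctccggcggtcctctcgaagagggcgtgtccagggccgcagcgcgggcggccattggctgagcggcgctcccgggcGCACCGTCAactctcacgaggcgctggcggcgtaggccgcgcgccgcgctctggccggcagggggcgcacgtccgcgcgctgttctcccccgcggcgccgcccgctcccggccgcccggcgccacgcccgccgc
In the pair that follows, capitals mark the core of the MRE, read on both strands as TGCACNC or TGCGCNC.
Mt1, chr8:94178839-94179088, plus strand: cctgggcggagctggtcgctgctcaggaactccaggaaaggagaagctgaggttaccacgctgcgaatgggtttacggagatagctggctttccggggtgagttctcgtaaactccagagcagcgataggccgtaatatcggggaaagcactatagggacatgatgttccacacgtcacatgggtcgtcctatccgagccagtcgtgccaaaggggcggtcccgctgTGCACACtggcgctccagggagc
Mt2, chr8:94172368-94172617, plus strand: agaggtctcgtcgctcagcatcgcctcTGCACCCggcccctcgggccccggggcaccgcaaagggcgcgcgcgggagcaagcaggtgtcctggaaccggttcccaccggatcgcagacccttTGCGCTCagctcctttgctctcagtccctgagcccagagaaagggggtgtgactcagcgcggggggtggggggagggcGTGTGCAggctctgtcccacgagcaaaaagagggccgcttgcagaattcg

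With the first spelling alone, the ARE core was found in the windows of Nfe2l2, Srxn1, Gclm, Mt2, and 1 of the 3 of Txnrd1, and 12.4% of all 32851 windows hold it. With both spellings, Srxn1 had 3 matches, starting 158 and 45 bases before the annotated start and 28 bases after it, Mt3 gained 1, and 27.8% of all windows had a match. Mt1, Nqo1, and Keap1 had none in these windows. The window of Mt1 ends 50 bases after its annotated start, short of its coding sequence, which begins at 94179311. Bases outside the windows were not searched for any of these cores, so an element there would be missed. A lack of matches therefore does not show that Mt1 lacks an ARE, and its matches are not a full count. The MRE core occurred 4 times in the window of Mt2, 3 times in that of Mt1, 3 times in that of Gclm, and once each in those of Srxn1 and Mt3, while 25.7% of all windows hold it and 1.97% hold it 3 or more times. In Gclm, 1 match to the MRE core overlaps the ARE match printed above. The hypoxia response element core, read as ACGTG or GCGTG, was found in windows of Gclm, Srxn1, Mt1, Mt2, Keap1, and Txnrd1, and in 43.8% of all windows. These matches are letters in a window, and binding was not measured.

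Levels of different genes were compared per kilobase of the gene length in the deposited table, so they depend on the annotation. The length of Mt1, 1246 bases, is its full span from 94179082 to 94180327, introns included. In control retina, Mt1 was the most abundant member at 126 ± 52.1 CPM per kb (SD, n = 3). Mt3 followed at 32.7 ± 3.93 and Srxn1 at 30.2 ± 2.92 CPM per kb (SD, n = 3), and this pair differed by less than the spread among mice. Keap1 stood at 14.2 ± 0.986, and Gclc, Nfe2l2, Txnrd1, and Gclm lay between 9.19 and 7.01 CPM per kb, where each differed from the next by less than the larger SD of the pair. Nqo1 was at 4.08 ± 0.836 CPM per kb, below these 4, and Mt2 was last at 0.158 ± 0.274 CPM per kb (SD, n = 3).

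The members also differed in how much they varied within a group. The pooled SD of log2 CPM within groups was 0.93 for Mt1, larger than in 92.3% of the 17540 genes tested, and 0.09 for Keap1, larger than in 4.24% of them. The median gene had 0.26. Mt3 (0.47) and Nfe2l2 (0.42) lay above that median, Gclm (0.29), Txnrd1 (0.29), and Gclc (0.27) lay close to it, and Nqo1 (0.24) and Srxn1 (0.16) lay below.

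**Figure D1:**
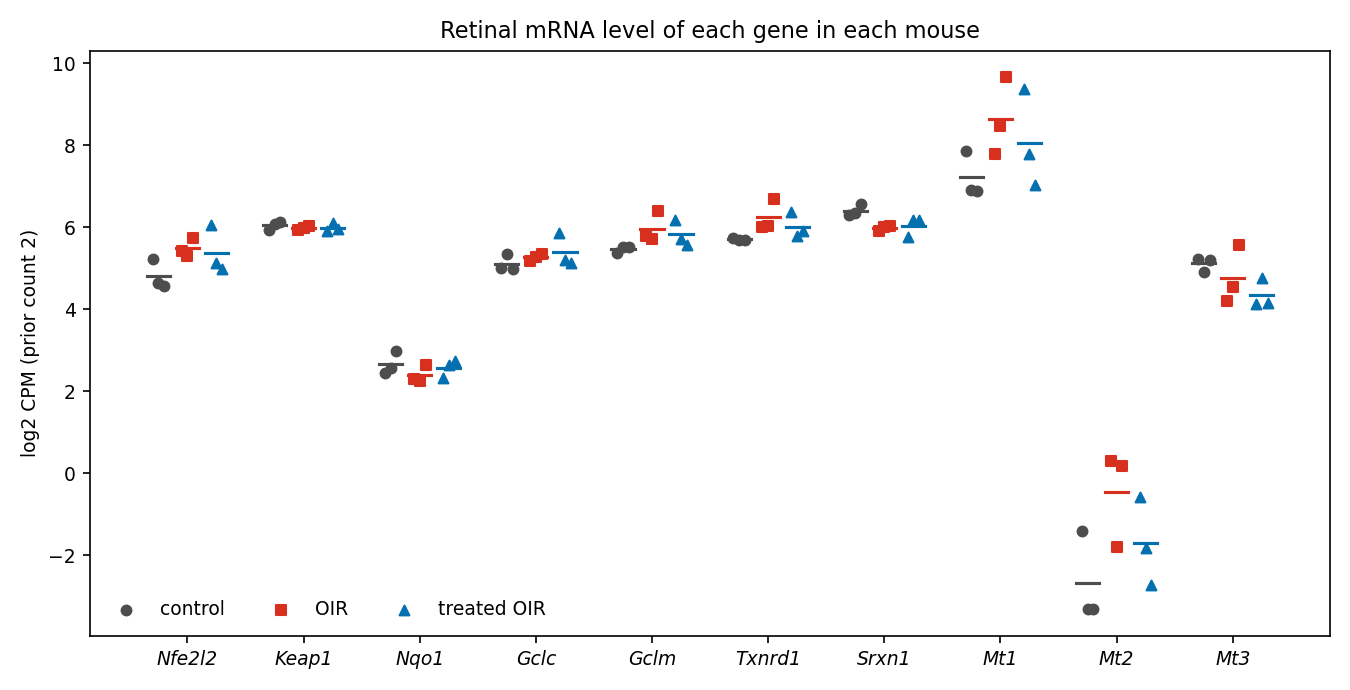
Level of each of the 10 genes in each mouse as log2 CPM with a prior count of 2, by gene on the horizontal axis, with 1 point per mouse and a line at the mean of each group of 3 mice. Mt1 was the highest member in every mouse and, of the 9 members tested, the most scattered within groups, Keap1 was the steadiest, and Mt2 lay near the detection limit, with a scatter wider than that of Mt1 in control and OIR mice.

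No member passed the test between OIR and control retina, 0 of 9, where 0.941% of all genes tested did (edgeR's quasi-likelihood test, Benjamini-Hochberg adjusted p below 0.05). The members did not move as a block. Nfe2l2, Gclm, Txnrd1, and Mt1 had fitted levels 1.44 to 2.94 times those of control, Srxn1 was 1.35-fold lower, and Keap1, Gclc, Nqo1, and Mt3 differed by less than 0.3 on the log2 scale. An unadjusted p below 0.05 was reached by 3 members with a positive difference, Gclm, Txnrd1, and Mt1, and by 1 with a negative difference, Srxn1, where 11.1% and 12.7% of all genes tested reached it in these directions, 23.8% together. The 3 OIR mice did not overlap with the 3 control mice for 3 members that were higher, Nfe2l2, Gclm, and Txnrd1, and 1 that was lower, Srxn1. Of all genes tested, 33% did not overlap, 15.9% higher and 17.2% lower.

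Nfe2l2 (ENSMUSG00000015839, chromosome 2, 75675513 to 75704641, minus strand, GRCm38) was measured at 37.3, 24.7, and 23.7 CPM in control mice 1, 6, and 7, at 42.5, 39.4, and 53.4 CPM in OIR mice 3, 5, and 6, and at 66.7, 34.7, and 31.3 CPM in treated OIR mice 2, 5, and 10. Every OIR mouse was above every control mouse, whereas treated OIR mice 5 and 10 lay within the control range and mouse 2 was the highest of all 9. OIR exceeded control by 0.66 on the log2 scale (SE 0.298, edgeR adjusted p = 0.219). It passed the threshold in 2 of 19 alternatives, DESeq2 fitted to the 2 groups (adjusted p = 0.0247) and limma-voom (adjusted p = 0.0371), under which 15.5% and 13.1% of all genes passed.

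Keap1 (ENSMUSG00000003308, chromosome 9, 21229730 to 21239361, minus strand) was measured at 61.4, 67.5, and 70.5 CPM in control mice 1, 6, and 7, at 61.4, 63.4, and 65.9 CPM in OIR mice 3, 5, and 6, and at 60.1, 68.3, and 62.1 CPM in treated OIR mice 2, 5, and 10. The 3 groups overlapped throughout. The log2 fold change of OIR over control was -0.06 (SE 0.0885, edgeR adjusted p = 0.702), and its sign depended on the scaling, at 0.00 with total counts alone. The exons of Keap1 share 510 bases with the antisense gene Gm16754, and the strandedness of the counting is not given in the sources used here.

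Both subunits of glutamate-cysteine ligase were expressed, and they differed in pattern. Gclm (ENSMUSG00000028124, chromosome 3, 122245557 to 122270732), the modifier subunit, was measured at 41.3, 45.5, and 45.5 CPM in control mice 1, 6, and 7, at 54.7, 52.3, and 83.6 CPM in OIR mice 3, 5, and 6, and at 72.9, 52.9, and 47.2 CPM in treated OIR mice 2, 5, and 10. All 6 OIR mice, treated or not, were above the 3 control mice, with OIR mouse 6 and treated OIR mouse 2 highest. Fitted over all 9 mice, the log2 fold change of OIR over control was 0.53 (SE 0.208, edgeR adjusted p = 0.170), and 0.28 without OIR mouse 6. Gclc (ENSMUSG00000032350, chromosome 9, 77754535 to 77794485), the catalytic subunit, was measured at 31.8, 40.4, and 31.5 CPM in control mice 1, 6, and 7, at 35.8, 39.0, and 40.7 CPM in OIR mice 3, 5, and 6, and at 58.2, 36.9, and 34.9 CPM in treated OIR mice 2, 5, and 10. The groups of Gclc overlapped apart from treated OIR mouse 2, and its log2 fold change of OIR over control was 0.15 (SE 0.197, edgeR adjusted p = 0.676).

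Txnrd1 (ENSMUSG00000020250, chromosome 10, 82833951 to 82897712), the cytosolic thioredoxin reductase, was measured at 53.4, 51.7, and 51.1 CPM in control mice 1, 6, and 7, at 64.7, 65.1, and 103 CPM in OIR mice 3, 5, and 6, and at 82.3, 54.8, and 60.1 CPM in treated OIR mice 2, 5, and 10. As with Gclm, all control mice were below all other mice, and the same pair of mice was highest. For Txnrd1, OIR exceeded control by 0.58 on the log2 scale (SE 0.205, edgeR adjusted p = 0.140), and 0.32 without OIR mouse 6. It passed in 1 of 19 alternatives, DESeq2 fitted to the 2 groups (adjusted p = 0.0302).

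Srxn1 (ENSMUSG00000032802, chromosome 2, 152105516 to 152111376) took the opposite direction. Its upstream sequence, printed above, held 2 matches to the ARE core, both to the spelling added later. Srxn1 was measured at 79.3, 81.5, and 94.6 CPM in control mice 1, 6, and 7, at 59.7, 63.8, and 65.5 CPM in OIR mice 3, 5, and 6, and at 54.5, 72.5, and 72.2 CPM in treated OIR mice 2, 5, and 10. Every mouse that had OIR was below every control mouse. For Srxn1, the log2 fold change of OIR over control was -0.43 (SE 0.126, edgeR adjusted p = 0.0965), and it stayed between -0.48 and -0.35 whichever mouse was left out. Srxn1 was the member called most often among the alternatives, in 5 of 19, with adjusted p between 0.00700 and 0.268 over all 19. Of these, the fit without treated OIR mouse 2, which is in neither group of this comparison but shares the estimate of spread, gave -0.45 (SE 0.0889, edgeR adjusted p = 0.0121), and 12.5% of all genes passed in that fit.

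Nqo1 (ENSMUSG00000003849, chromosome 8, 107388225 to 107403206, minus strand) was a low member, with 77 to 153 counts per mouse. Its level was 5.34, 5.85, and 7.80 CPM in control mice 1, 6, and 7, at 4.81, 4.66, and 6.12 CPM in OIR mice 3, 5, and 6, and at 4.88, 6.13, and 6.63 CPM in treated OIR mice 2, 5, and 10. The 3 groups overlapped. For Nqo1, the log2 fold change of OIR over control was -0.28 (SE 0.234, edgeR adjusted p = 0.501).

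**Figure D2:**
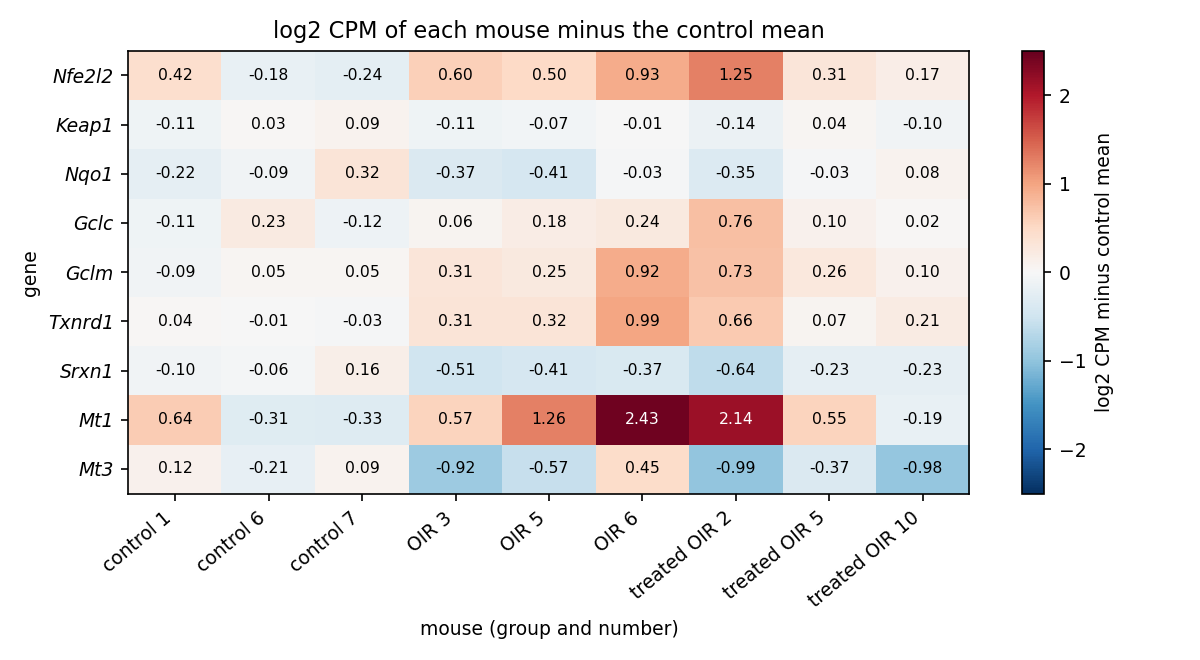
Log2 CPM of each mouse minus the mean of the 3 control mice, for the 9 members tested (rows) in the 9 mice (columns), with the difference printed in each cell and colored red above and blue below the control mean. OIR mouse 6 and treated OIR mouse 2 hold the highest values of Nfe2l2, Gclm, Txnrd1, and Mt1, while Srxn1 is below the control mean in all 6 OIR mice.

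Mt1 (ENSMUSG00000031765, chromosome 8, 94179082 to 94180327) had the largest difference among the members tested and the largest error. Mice had 232, 120, and 119 CPM in control mice 1, 6, and 7, at 221, 357, and 807 CPM in OIR mice 3, 5, and 6, and at 657, 219, and 130 CPM in treated OIR mice 2, 5, and 10. OIR mouse 3 lay just below control mouse 1, so the groups overlapped, and the highest mouse was 3.65 times the lowest within OIR and 5.04 times within treated OIR. For Mt1, the log2 fold change of OIR over control was 1.55 (SE 0.647, edgeR adjusted p = 0.186), a 2.94-fold difference that was 0.88 on the log2 scale without OIR mouse 6. No alternative of 19 called it, with adjusted p between 0.0599 and 0.509.

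Mt2 (ENSMUSG00000031762, chromosome 8, 94172664 to 94173568) was close to absent from the table although it neighbors Mt1. It had 8, 0, and 0 counts in control mice 1, 6, and 7, 21, 4, and 23 counts in OIR mice 3, 5, and 6, and 9, 3, and 1 counts in treated OIR mice 2, 5, and 10. A count of 0 allows a level of up to 0.149 CPM in control mouse 6 and 0.193 CPM in control mouse 7, from 3 counts per library. OIR mice 3 and 6 had the highest counts, and OIR mouse 5 lay below control mouse 1, so the groups overlapped. Of the 588 exon bases of Mt2, 432 (73.5%) are shared with Gm45774, an antisense gene on the opposite strand, which itself had between 2 and 26 counts per mouse. Without strand, reads of the pair cannot be told apart, and the part of this overlap in the low counts of Mt2 was not tested.

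Mt3 (ENSMUSG00000031760, chromosome 8, 94152607 to 94154146), the nervous tissue form, did not follow Mt1. It stood at 37.6, 30.0, and 36.9 CPM in control mice 1, 6, and 7, at 18.3, 23.4, and 47.4 CPM in OIR mice 3, 5, and 6, and at 17.4, 26.9, and 17.6 CPM in treated OIR mice 2, 5, and 10. OIR mice 3 and 5 were below all control mice and OIR mouse 6 was above them. The log2 fold change of OIR over control was -0.23 (SE 0.330, edgeR adjusted p = 0.714), and it was -0.74 without OIR mouse 6 and 0.03 without OIR mouse 3.

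In treated OIR compared with control retina, again 0 of 9 members passed, where 0.0228% of all genes tested did. This comparison uses the same 3 control mice as the one above. An unadjusted p below 0.05 was reached by 2 members, both lower, Srxn1 and Mt3, where 8.6% of all genes reached it in that direction. The groups did not overlap for Gclm and Txnrd1, which were higher, and Srxn1 and Mt3, which were lower, and 25% of all genes tested did not overlap, 12.8% higher and 12.2% lower.

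For Srxn1, the log2 fold change of treated OIR over control was -0.36 (SE 0.126, edgeR adjusted p = 0.205), beside -0.43 for OIR over control. Without treated OIR mouse 2 it was -0.23. For Mt3 it was -0.76 (SE 0.334, edgeR adjusted p = 0.266), and all 3 treated OIR mice were below all 3 control mice. For Gclm and Txnrd1 it was 0.39 and 0.34 (edgeR adjusted p = 0.345 and 0.400), with group means of 57.6 ± 13.5 and 65.8 ± 14.6 CPM (SD, n = 3) in treated OIR against 44.1 ± 2.44 and 52.1 ± 1.20 CPM (SD, n = 3) in control mice. These positive values rested in part on mouse 2, and without it they were 0.19 and 0.15.

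The remaining differences of treated OIR from control were small or were carried by the same mouse. The log2 fold change of Mt1 was 1.09 (SE 0.640, edgeR adjusted p = 0.379) with mouse 2 and 0.15 without it. Nfe2l2 was at 0.63 (edgeR adjusted p = 0.293) with it and 0.21 without it, and Gclc at 0.32 and 0.06. Keap1 was at -0.07 and Nqo1 at -0.10 (edgeR adjusted p = 0.710 and 0.841), and Nqo1 changed sign, to 0.026, without mouse 2.

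Between treated OIR and OIR retina, the comparison of the inhibitor with its vehicle, 0 of 9 members passed and 0% of all genes tested did. No member reached an unadjusted p below 0.05, which 4.69% of all genes tested reached, and no member's groups failed to overlap, where 9.13% of all genes tested did not overlap. DESeq2 fitted to these 2 groups called 0 members and 0.431% of all genes.

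The log2 fold changes of treated OIR over OIR were -0.03 for Nfe2l2 (SE 0.296), -0.14 for Gclm (SE 0.207), and -0.24 for Txnrd1 (SE 0.205), and 0.17 for Gclc (SE 0.197), 0.18 for Nqo1 (SE 0.235), and 0.08 for Srxn1 (SE 0.126). Each of these 6 was smaller than 1.2 times its standard error. Keap1 was at -0.00 (SE 0.0886), the narrowest estimate among the members. The metallothioneins had the widest, with -0.46 (SE 0.633) for Mt1 and -0.53 (SE 0.333) for Mt3, and the adjusted p was 0.9998 for each of the 9 (edgeR).

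How Mt1 compared between the inhibitor and its vehicle depended on 1 mouse in each group. Without treated OIR mouse 2, the log2 fold change was -1.37 (SE 0.532, edgeR adjusted p = 0.315), and without OIR mouse 6 it was 0.22. The 2 other treated OIR mice, at 219 and 130 CPM, were below all 3 OIR mice, at 221 to 807 CPM. Without treated OIR mouse 2, the groups of treated OIR and OIR did not overlap for 6 of 10 members, 2 higher and 4 lower. Of all genes tested in that fit, 33.0% did not overlap. The test passed 0 members and 0 of all 18116 genes in that fit. An unadjusted p below 0.05 was reached by 1 member higher and 1 lower, and by 1513 and 849 of all genes. The 10 include Mt2, which passed the filter on low counts in that fit but not in the fit to all mice. Mt2 was among the 4 lower, with 3 counts in treated OIR mouse 5 and 4 in OIR mouse 5. Mt1 was lower by a narrow margin, 219 CPM in treated OIR mouse 5 against 221 CPM in OIR mouse 3. Nqo1 was higher by a narrow margin, 6.13 CPM in treated OIR mouse 5 against 6.12 CPM in OIR mouse 6. For Mt3, the log2 fold change of treated OIR over OIR was -0.02 without OIR mouse 6.

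**Figure D3:**
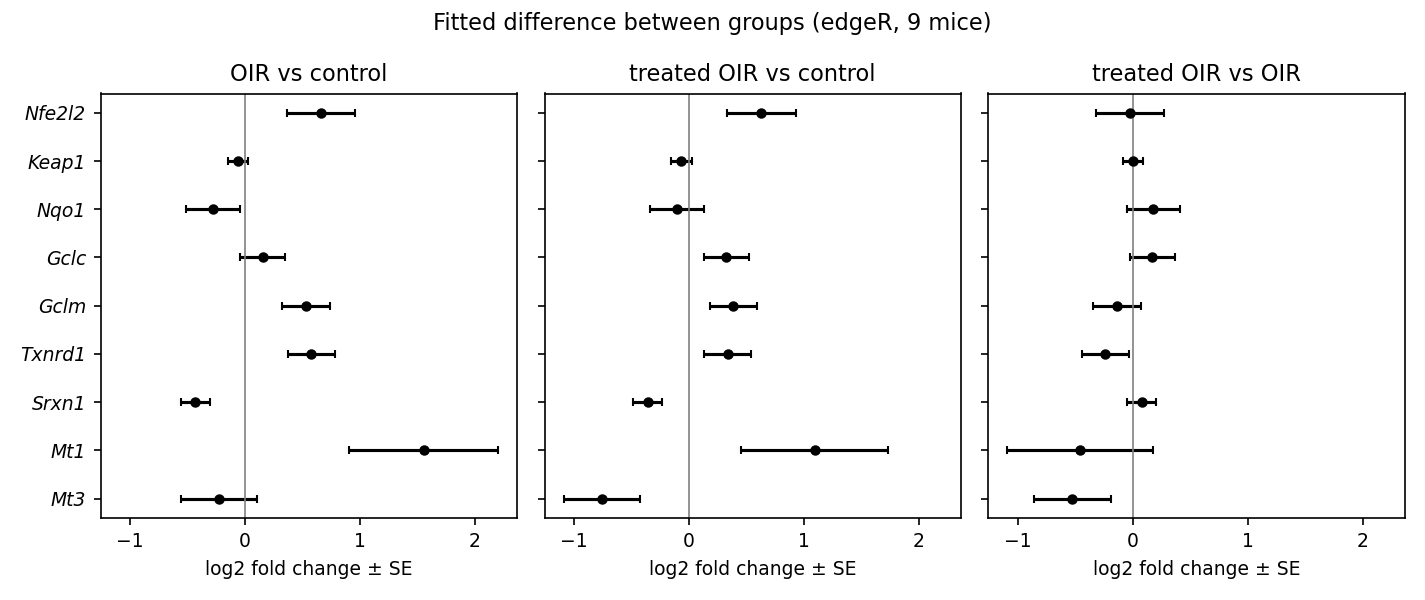
Log2 fold change of each of the 9 members tested (edgeR, all 9 mice) in the 3 comparisons, with bars of 1 standard error on each side and a line at 0. Srxn1 lies left of 0 against control in both panels with a narrow bar, Mt1 has the widest bars, and in the comparison of treated OIR with OIR every value except that of Mt3 is within 1.2 standard errors of 0.

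The wider pathway was read from 5 lists of NRF2 regulators, glutathione genes, thioredoxin and peroxiredoxin genes, NADPH and phase II genes, and superoxide and peroxide enzymes, with 89 genes besides the members, 85 of them tested. Between OIR and control, 1 was higher and 1 was lower past the test, Bach1 and Tkt. Each is 1.18% of the 85, where 0.433% of all genes tested passed higher and 0.507% lower. An unadjusted p below 0.05 was reached by 10 with a positive and 11 with a negative difference, and the groups did not overlap for 15 higher and 13 lower. As shares of the 85 these come to 11.8% and 12.9%, and to 17.6% and 15.3%, close to the 11.1% and 12.7%, and the 15.9% and 17.2%, of all genes tested. The median log2 fold change was 0.04 over these 85 genes and 0.03 over all genes tested. In treated OIR compared with control, 0 passed, where 0.0228% of all genes tested did. In this comparison 8 higher (9.41%) and 16 lower (18.8%) had an unadjusted p below 0.05, where 10% and 8.6% of all genes tested did. The groups did not overlap for 9 higher (10.6%) and 22 lower (25.9%), where 12.8% and 12.2% of all genes did. Between treated OIR and OIR, 0 passed, and 0% of all genes tested did. An unadjusted p below 0.05 was reached by 0 higher and 7 lower (8.24%), where 2.39% and 2.3% of all genes reached it. The groups did not overlap for 1 higher (1.18%) and 9 lower (10.6%), where 3.74% and 5.39% of all genes did not.

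Among the regulators, Bach1, the repressor that competes with NRF2 for its sites, rose in OIR. Its level was 22.2, 21, and 21.5 CPM in control mice 1, 6, and 7, at 36.4, 31.0, and 37.1 CPM in OIR mice 3, 5, and 6, and at 31.4, 31.8, and 29.3 CPM in treated OIR mice 2, 5, and 10. All 6 mice that had OIR were above all 3 control mice. For Bach1, the log2 fold change of OIR over control was 0.69 (SE 0.108, edgeR adjusted p = 0.0407), and 10 of 19 alternatives called it (adjusted p between 4.3e-05 and 0.163). It kept its call without treated OIR mouse 2 or 10 and lost it without any of the other 7 mice (adjusted p between 0.0802 and 0.163), fits in which 0 genes passed, while the log2 fold change stayed between 0.64 and 0.77 over all 19. The value of treated OIR over control was 0.52 (SE 0.108, edgeR adjusted p = 0.106) and that of treated OIR over OIR was -0.18 (SE 0.108). Mafk, a small MAF partner of both factors, had 0.68 in OIR over control (SE 0.191, edgeR adjusted p = 0.0923), and Nfe2l1, a relative of Nfe2l2, and Sqstm1, which encodes the KEAP1-binding protein p62, had -0.38 and -0.36 (edgeR adjusted p = 0.0938 and 0.108).

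Of the enzymes that supply and use reducing power, Tkt, the transketolase of the pentose phosphate pathway, fell in OIR. Levels were 429, 430, and 530 CPM in control mice 1, 6, and 7, at 247, 264, and 268 CPM in OIR mice 3, 5, and 6, and at 274, 255, and 317 CPM in treated OIR mice 2, 5, and 10. The control mice stood clear of the other 6. The log2 fold change of OIR over control was -0.84 (SE 0.128, edgeR adjusted p = 0.0407), called in 10 of 19 alternatives (adjusted p between 1.4e-09 and 0.163) and, like Bach1, not called without any of those 7 mice. Over all 19 it stayed between -0.89 and -0.72, and that of treated OIR over control was -0.72 (SE 0.128, edgeR adjusted p = 0.102).

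Hmox1, the inducible heme oxygenase and a target of both NRF2 and BACH1, had the largest difference of the list and a spread to match. It stood at 22.9, 11.3, and 4.51 CPM in control mice 1, 6, and 7, at 27.2, 130, and 471 CPM in OIR mice 3, 5, and 6, and at 277, 12.9, and 9.56 CPM in treated OIR mice 2, 5, and 10. OIR mouse 6 and treated OIR mouse 2 were highest, as they were for Mt1, Gclm, and Txnrd1. On the log2 scale OIR exceeded control by 4.0 (SE 1.48, edgeR adjusted p = 0.149).

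Other genes of these lists whose OIR and control mice did not overlap did not pass the test. In the glutathione list, Chac1, which degrades glutathione, had 0.71 and Abcc1, an exporter of glutathione conjugates, had 0.67 in OIR over control (edgeR adjusted p = 0.488 and 0.0706). Mgst3, a microsomal glutathione transferase, had -1.28 and Gsto1, an omega-class transferase, had -0.68 (edgeR adjusted p = 0.0947 and 0.0794). In the thioredoxin list, Txnip, the thioredoxin-binding inhibitor, had 1.32 and Sesn1, a sestrin, had 0.24 (edgeR adjusted p = 0.0628 and 0.226), and Prdx5, a peroxiredoxin, and Txnrd3, a further thioredoxin reductase, had -0.45 and -0.30 (edgeR adjusted p = 0.0874 and 0.375). In the NADPH and phase II list, Aox1, an aldehyde oxidase, had 1.89 and Cbr1, a carbonyl reductase, had -0.39 (edgeR adjusted p = 0.127 and 0.0644). Catalase (Cat) had 0.41, and the superoxide dismutases Sod1 and Sod2 had -0.35 and -0.17 (edgeR adjusted p = 0.128, 0.0998, and 0.311). Genes of these lists thus lay on both sides of 0. The exons of Txnip share 606 bases (19.4%) with the antisense gene Gm15441.

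**Figure D4:**
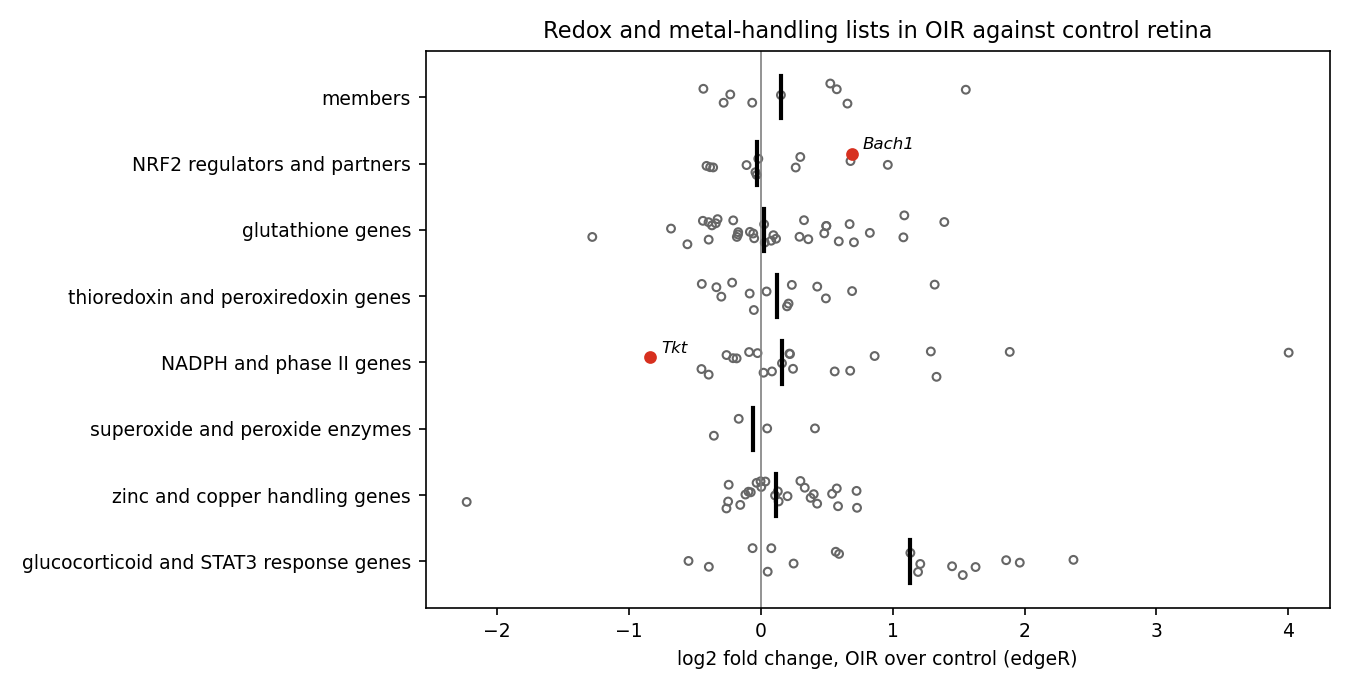
Log2 fold change of OIR over control (edgeR) for each gene tested in the members and 7 lists, 1 circle per gene, with a bar at the median of the list and filled circles for genes with an adjusted p below 0.05. Bach1 and Tkt are the genes that passed in the lists shown, and the medians of the redox and metal lists lie near 0.

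Genes that handle zinc and copper, the metals that metallothioneins bind, were tested as a further list. Of 26 tested, 0 passed between OIR and control, where 0.941% of all genes tested did. At an unadjusted p below 0.05, 7 had a positive and 1 a negative difference, and the groups did not overlap for 9 higher and 1 lower. As shares of the 26, the higher ones come to 26.9% and 34.6%, where all genes tested gave 11.1% and 15.9%, and the lower ones to 3.85% each, where all genes gave 12.7% and 17.2%. The median log2 fold change was 0.12. Among those higher, Atp7b, a copper pump, had 0.73 and Slc30a10, a metal transporter, had 0.58 (edgeR adjusted p = 0.139 and 0.214). The widest difference was in Slc30a3, the zinc transporter of synaptic vesicles, with 8.35, 8.92, and 9.61 CPM in control mice, 2.14, 2.24, and 1.35 CPM in OIR mice, and 1.14, 4.91, and 8.27 CPM in treated OIR mice, and a log2 fold change of OIR over control of -2.23 (SE 0.571, edgeR adjusted p = 0.0790). All OIR mice were below all control mice for it, and treated OIR mice spanned both groups.

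Genes of the glucocorticoid and STAT3 response, the other known inducers of Mt1, were summed as 1 list. This sum was highest in the mice with the most Mt1. The summed level of the 17 listed genes, all detected, was 1399, 1220, and 737 CPM in control mice 1, 6, and 7, 1434, 1738, and 3483 CPM in OIR mice 3, 5, and 6, and 4279, 1166, and 930 CPM in treated OIR mice 2, 5, and 10. These mice were treated OIR mouse 2 and OIR mouse 6. None of the 17 passed between OIR and control, where 0.941% of all genes tested did. Their median log2 fold change was 1.14, and 0.45 without OIR mouse 6. Socs3, a direct STAT3 target, had 2.37 (SE 1.14, edgeR adjusted p = 0.244) and was highest in the same pair of mice, at 126 and 113 CPM. Edn2, an endothelin gene, had 1.96 and Tsc22d3, a glucocorticoid target, had -0.55 (edgeR adjusted p = 0.319 and 0.224). The part of this response in the level of Mt1 was not tested.

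Markers of glia, the cells in which metallothioneins are known to be abundant, were read beside the members. The summed level of 12 Müller glia markers, all detected, was 7355 to 8169 CPM in control, 9339 to 12175 CPM in OIR, and 6524 to 7640 CPM in treated OIR mice, so that OIR stood above the other groups, which overlapped. One of the 12, the glutamate transporter gene Slc1a3, rose in OIR (log2 fold change 0.95, SE 0.165, edgeR adjusted p = 0.0447), and it was called in 10 of 19 alternatives, 2 of them among the 9 that left out a mouse. The summed level of 5 astrocyte markers, all detected, was 137 to 398 CPM in control, 332 to 943 CPM in OIR, and 198 to 518 CPM in treated OIR mice, with overlap among all groups. Between OIR and control, 0 of the 5 passed, where 0.941% of all genes tested did. Named by the same rule, Crym had 1.03 in OIR over control, Gfap 1.53, and Aldh1l1 0.62 (edgeR adjusted p = 0.226, 0.181, and 0.0562). The sums of 8 retinal ganglion cell markers were 1352 to 1959 CPM in control, 132 to 661 CPM in OIR, and 60.3 to 1137 CPM in treated OIR mice. Treated OIR mouse 2 had the lowest sum of all 9 mice, 60.3 CPM, and treated OIR mice 5 and 10 had 1087 and 1137 CPM. Pou4f1 and Thy1 had -2.38 and -2.27 in OIR over control (edgeR adjusted p = 0.232 and 0.161). The part of cell makeup in the levels of the members was not tested.

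Other cell type lists were summed in the same way. Microglia and macrophage markers (10) had 90.2 to 424 CPM in control, 198 to 431 CPM in OIR, and 102 to 140 CPM in treated OIR mice. Between treated OIR and OIR, 8 of the 10 did not overlap, all lower, where 5.39% of all genes tested were lower without overlap. The median log2 fold change of the 10 was -1.32, with 0 past the test, where 0% of all genes tested passed. The microglial genes Cx3cr1 and Tmem119 had 0.70 and -1.01 in OIR over control (edgeR adjusted p = 0.140 and 0.0821). Endothelial markers (8) had 239 to 257 CPM in control, 350 to 451 CPM in OIR, and 290 to 435 CPM in treated OIR mice. Kdr, a VEGF receptor gene, rose in OIR (log2 fold change 1.10, SE 0.169, edgeR adjusted p = 0.0407). It weighed heavily in these sums, at 101 to 125 CPM in control and 206 to 281 CPM in OIR mice. Of the 8 markers, 6 were above 0 and 2 below in OIR over control, with a median of 0.18. The groups did not overlap for 1 of them (12.5%), higher, where 15.9% of all genes tested were. Red blood cell markers had 74.6 to 133, 9.49 to 58.2, and 54.0 to 169 CPM in control, OIR, and treated OIR mice. In OIR, 5 of 5 tested were lower than in control without overlap, where 17.2% of all genes tested were. Of these 5, 0 passed the test (Hba-a2 at -1.78 and Hbb-bt at -1.66, edgeR adjusted p = 0.163 and 0.170), where 0.941% of all genes tested did.

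Amacrine and bipolar cell markers (10) had 1502 to 1884, 1494 to 1663, and 1183 to 1626 CPM in control, OIR, and treated OIR mice. Trpm1 had 0.47, and Gad1 and Tfap2a had -1.98 and -1.77 in OIR over control (edgeR adjusted p = 0.106, 0.110, and 0.0599). Pigment epithelium and ciliary markers (10) had 338 to 490, 329 to 632, and 396 to 689 CPM in the same order, with Rgr at -1.04 (edgeR adjusted p = 0.140). Lens markers (21) had 81.3 to 545, 317 to 1858, and 83.0 to 190595 CPM, with Cryab at 0.95 (edgeR adjusted p = 0.736). The rod gene Nr2e3 had 0.49 (edgeR adjusted p = 0.156), whereas 6 of the 10 rod markers were below 0 and their median was -0.08. The part of these cells in the members' levels was not tested.

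The genes whose log2 CPM followed Mt1 most closely over the 9 mice, among 13969 compared, were Slc3a2 (Pearson r = 0.99), Jam3 (0.99), Man2b2 (0.98), Nup205 (0.98), and Junb (0.98). Without OIR mouse 6 and treated OIR mouse 2, the farthest from the median of Mt1, r for these 5 lay between 0.92 and 0.97. Among the members, Nfe2l2 (r = 0.92) and Txnrd1 (0.90) ran closest to Mt1, and r was 0.86 and 0.62 without those mice. Srxn1 had r = -0.73 and Mt3 had 0.08 with Mt1. Srxn1 itself was followed most closely by Sumo3 (0.98), St6galnac6, Nptn, Gm47163, and Dctn5 (0.97 each), and Nqo1 by Rbmxl1 (0.94), Pfn2 (0.93), Coq10b (0.92), Ube2d1 (0.90), and Cmpk1 (0.89). These values describe 9 points that fall into 3 groups and share their library scaling, and the genes were picked as the highest of all those compared.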

How the data were processed

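Retinal RNA of 9 mice, each taken as 1 replicate, was grouped by the labels. The authors deposited raw counts per gene as whole numbers, with gene lengths. The submitters' processing notes name CASAVA and HISAT, and the counter, genome build, and strandedness are not given in the sources used here. Since 98.3% of shared gene identifiers have the same position in GENCODE M21, coordinates are on GRCm38.

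Counts were fitted with edgeR 4.0.16 in R 4.3.3 (TMM, default filter by group, 1 mean per group over all 9 mice, quasi-likelihood test). P-values were adjusted by Benjamini-Hochberg over 17540 genes, and a gene passed at an adjusted p below 0.05. CPM were computed on TMM-scaled library sizes, and log2 CPM used a prior count of 2. At this depth, counting error is small for all members but Mt2 and Nqo1, and precision is set by 3 mice per group. The fits were also run on simulated counts in which no library stood apart, so how they treat such a library was not checked. Alternatives were DESeq2 1.42.0, limma 3.58.1, other scalings, filters, and samples, sex as a covariate, and leaving out each mouse. Tables and figures used Python 3.11.15, pandas 2.3.3, and matplotlib 3.10.9.

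Besides the members, genes were named from each list if they passed in any comparison, or as the 2 largest rises and 2 largest falls of OIR over control among genes with a mean log2 CPM of at least 1 whose groups did not overlap. Of these, 1 gene is not reported here. The 5 genes most like Mt1, Srxn1, and Nqo1 were named by Pearson r. The members and lists were chosen with earlier results of these data known.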

Additional observations from a re-analysis of the deposited data

How the results depend on the processing

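No paired analysis was possible because replicate numbers mark separate animals and any 2 groups share at most 1 number. Adjusted calls depended strongly on the fit. Between OIR and control, 165 genes and 0 members passed with edgeR on all 9 mice, 2662 and 3 with DESeq2 on the 2 groups, 1908 and 1 with DESeq2 on all 9 mice, 1771 and 1 with edgeR on the 2 groups, and 2305 and 2 with limma-voom. The gene count was 37 with total counts alone, 532 with no filter, 376 with at least 10 counts in every mouse, and 0 with sex as a covariate (3775 at an unadjusted p below 0.05). Leaving out each mouse gave 0 to 2272 genes and 0 to 1 members, the highest without treated OIR mouse 2, and 0 genes in 7 of the 9 fits (2845 to 4140 at an unadjusted p below 0.05). Between treated OIR and control, 4 genes became 346, 763, 0, and 926 in the same order of tests, 18 with no filter, and 0 with DESeq2 size factors, without crystallin genes, or with sex as a covariate, and 0 to 6 without each mouse. Between treated OIR and OIR, 0 genes became 73 and 30 with DESeq2, 1 with limma-voom, and 1 with no filter. No alternative called a member in these comparisons with treated OIR. The cause of these shifts was not tested.

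Of the members' fold changes under the alternatives, 483 kept direction and side of the threshold, 8 passed it, and 22 turned direction, none of them past the test. For OIR over control, Keap1 turned to 0.00 (0.00494) with total counts alone, and Mt3 ranged from -0.74 to 0.026 without each mouse. For treated OIR over control, limma-voom gave 0.048 for Nqo1 and -0.00189 for Gclc, and Nqo1 ranged from -0.21 to 0.076 without each mouse. For treated OIR over OIR, Keap1 was 0.00564 with DESeq2 on the 2 groups, 0.059 with limma-voom, 0.016 without crystallin genes, and 0.021 with sex as a covariate, Gclc was -0.040 with limma-voom, and Srxn1 was -0.00482 with total counts alone. Without each mouse, that comparison ranged from -0.42 to 0.17 for Nfe2l2, -0.059 to 0.064 for Keap1, -0.073 to 0.30 for Gclc, -0.32 to 0.11 for Gclm, -0.41 to 0.019 for Txnrd1, and -1.37 to 0.22 for Mt1. With these spreads and 3 mice per group, a difference that missed the threshold is not shown to be absent.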
